A study of Mus musculus with 217 samples.

Results

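The 5 genes described here are Lmna, Acta2, Actb, Actr2 and Tmsb4x, the genes of A-type lamin, of actin and of actin's partners, out of 9739 genes measured in single cells of the growth plate. Each cell came from the tibia of a wild-type C57/BL mouse at postnatal day 7, and the 217 cells carry the same labels, with no animal, litter or plate named. They therefore form 1 sample of 1 group, no test was possible, and every SD below is a spread over cells, not between animals. Levels are log2(abundance + 1) as deposited, with no counts, so sequencing depth is unknown. Columns that correlated above 0.95 were averaged as repeats of one cell (52 columns in 23 sets) and 1 mixed column was left out. What remained is called profiles here.

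The genes were followed over 5 groups of profiles. The first group held 11 profiles with Acan, the gene of the cartilage proteoglycan aggrecan, below 5. The others, with Acan of at least 5 and called chondrocyte profiles here, were cut into 4 quartile groups of 44 by Col10a1, the collagen gene that marks hypertrophic chondrocytes. The genes were picked as genes of cell shape and stiffness, with their levels in these profiles already known. Their differences between these groups are therefore given as a description.

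The nuclear lamina is a filament network under the nuclear envelope, and lamins A and C, both made from Lmna, are known to be more abundant in cells of stiff tissues. In the cytoplasm, actin switches between free monomers and filaments. Thymosin beta 4, the product of Tmsb4x, holds monomers in reserve, and the Arp2/3 complex, of which Actr2 encodes the subunit Arp2, starts branched filaments. Free actin also holds back the cofactors of the transcription factor SRF, which binds a DNA element called the CArG box in the promoters of many actin genes. In the growth plate, chondrocytes change from flat, stacked cells to large round hypertrophic cells, and actin organization is known to influence chondrocyte identity in culture.

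All 5 genes are protein coding. In RefSeq's GRCm38.p6, the assembly on which mm10 is based, Lmna lies on chr3:88481148-88509932, Acta2 on chr19:34240336-34255585, Actb on chr5:142903115-142907976, Actr2 on chr11:20062304-20112951 and Tmsb4x on chrX:167207093-167213479. The actin gene whose level varied most here, Acta2, is shown with its promoter, because its window was the only one among these genes with more than 1 match to the CArG box. RefSeq's promoter table held windows for 4 of the 5 genes, from 250 bases before to 50 after a start. The search allowed 1 of the 6 middle letters, which are A or T in the full element, to be C or G. A full element was absent from all windows of these genes. Of 32851 windows in the table, 1.63% held a full element, 9.98% a full or near one, and 0.822% at least 2. The window of Acta2 is chr19:34255324-34255623 on the minus strand, with both near matches in capitals:
Acta2 promoter: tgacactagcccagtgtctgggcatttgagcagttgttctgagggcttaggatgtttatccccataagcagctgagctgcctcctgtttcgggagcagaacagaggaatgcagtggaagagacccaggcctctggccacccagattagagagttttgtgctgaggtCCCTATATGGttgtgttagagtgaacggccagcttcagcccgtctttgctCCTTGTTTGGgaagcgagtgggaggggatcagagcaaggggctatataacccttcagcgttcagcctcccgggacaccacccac
One of the 2 windows of Lmna, chr3:88493263-88493562 on the minus strand, held 1 near match, CCAATATGGG, and its other window and those of Actr2 and Tmsb4x held none. The element reads the same on both strands, so 1 search covered both. A match describes letters only.

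Lmna was lower the more Col10a1 a chondrocyte profile carried. Its level was 9.55 ± 0.73 in the lowest quartile of Col10a1, 9.07 ± 0.99 in the second, 8.55 ± 1.42 in the third and 7.07 ± 2.05 in the highest (mean ± SD, n = 44 profiles each). From lowest to highest value with the median between, the profiles of the highest quartile ran 1.75, 6.60 and 10.12, and those of the lowest quartile 7.93, 9.35 and 11.04. The quartiles overlapped, but the highest reached far lower: 26 of its 44 profiles (59.1%) lay below 7.93, the lowest value of the lowest quartile, against 6 in the second quartile (13.6%) and 9 in the third (20.5%). Most profiles of the first 3 quartiles thus stayed near 9, and low values were found mainly at the top of the Col10a1 range.

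The difference of means for Lmna, highest minus lowest quartile, was -2.48 on the log2 scale. Columns were taken as repeats by their correlation above 0.95 and not by a label. A small SD between them is thus partly set by that choice. Between such columns the SD was 0.25 for Lmna, and the SD within the highest quartile was 2.05. Of 5385 genes detected in at least 20% of profiles, where detection means a value of at least 1, 6 had a more negative difference than Lmna. With Col10a1, Lmna had a rank correlation of -0.50 (Spearman's rho over the chondrocyte profiles, which are cells of 1 sample and not replicates). One gene, Arglu1, which encodes a nuclear arginine- and glutamate-rich protein, had a lower rho, at -0.53. Profiles with more Col10a1 also held more detected genes, with a median of 3063 in the lowest quartile, 3528 and 3504 in the next, and 3610 in the highest. Lmna had a rho of -0.25 with genes detected, and its difference was -2.15 with genes detected regressed out.

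**Figure D1:**
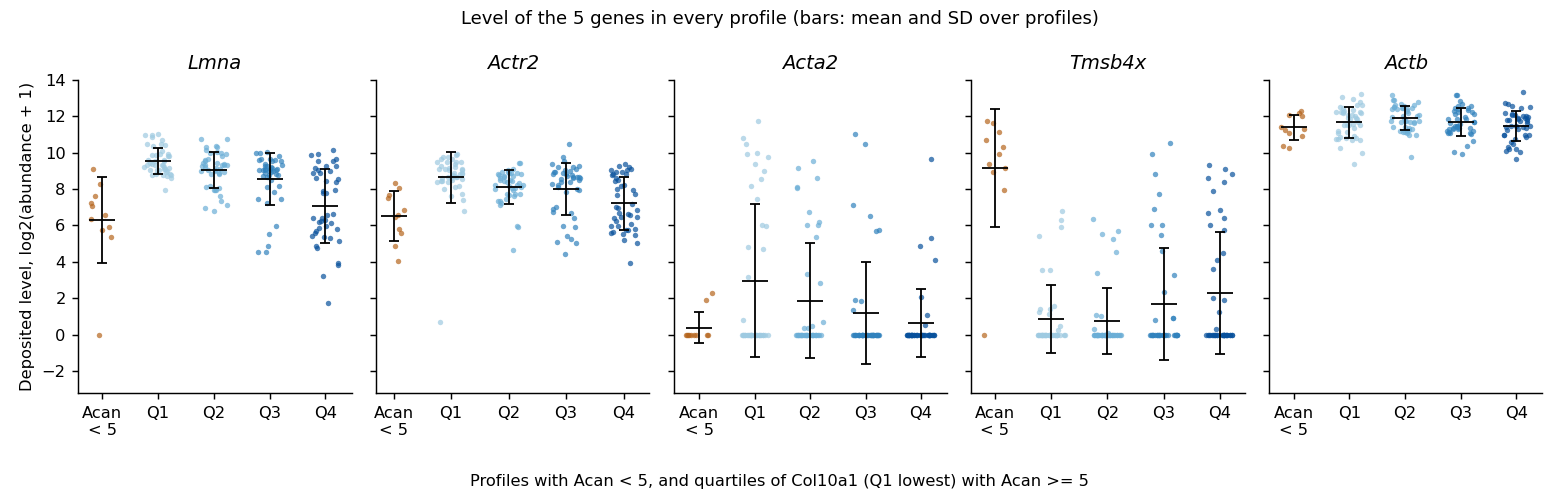
Deposited level, log2(abundance + 1), of each gene in every profile, for the 11 profiles with Acan below 5 and the 4 quartiles of Col10a1 among chondrocyte profiles (Q1 lowest); each dot is a profile and black bars are the mean and SD over profiles, which can reach below 0. Mean Lmna is 7.07 in Q4 and 9.55 in Q1, Tmsb4x is high at Acan below 5, and Actb stays between 9.36 and 13.32 in chondrocyte profiles.

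Within the highest quartile, low Lmna went with genes of late and prehypertrophic cells. In the 20 profiles with Ibsp, the gene of bone sialoprotein, a protein of mineralizing matrix, Lmna was 5.98 ± 1.49, against 7.97 ± 2.04 in the 24 profiles where Ibsp was not detected (SD over profiles). For Ihh, the hedgehog ligand of prehypertrophic cells, the levels of Lmna were 5.82 ± 1.79 in the 20 profiles that had it and 8.11 ± 1.65 in the 24 that did not. These 2 splits share profiles, so neither is independent of the other. Genes detected were not compared between the sides of these splits. Rank correlation between Lmna and Ibsp was -0.57 in the highest quartile, where 45.5% of profiles had Ibsp. In the other quartiles it was -0.05, 0.01 and -0.23 from the lowest up, where 6.82%, 9.09% and 22.7% of profiles had Ibsp. Most profiles of those quartiles share a 0 for Ibsp, so these values mainly compare profiles with and without it. Low Lmna also went with high Acan in the highest quartile, with a rho of -0.62. In the other quartiles, rho between Lmna and Acan was 0.04, 0.34 and -0.16 from the lowest up.

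The gene most like Lmna was Sox9, a master regulator of the chondrocyte lineage. Among 2752 genes detected in at least 50% of the chondrocyte profiles, it had the highest rho with Lmna, 0.62, followed by Rps25 (0.60), a ribosomal protein gene, Kdelr2 (0.51), a receptor that returns proteins to the endoplasmic reticulum, Col9a2 (0.51), a cartilage collagen, and Arglu1 (0.50). At the other end were Col10a1 itself, Cpe (-0.50), a carboxypeptidase that processes hormones, and Ccdc80 (-0.49), a matrix protein. Sox9 was 9.44 ± 1.05 in the lowest quartile of Col10a1, 9.11 ± 1.04 and 8.65 ± 1.23 in the next, and 7.37 ± 1.76 in the highest. Within quartiles, rho between Lmna and Sox9 was 0.35, 0.37, 0.44 and 0.78 from lowest to highest.

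**Figure D2:**
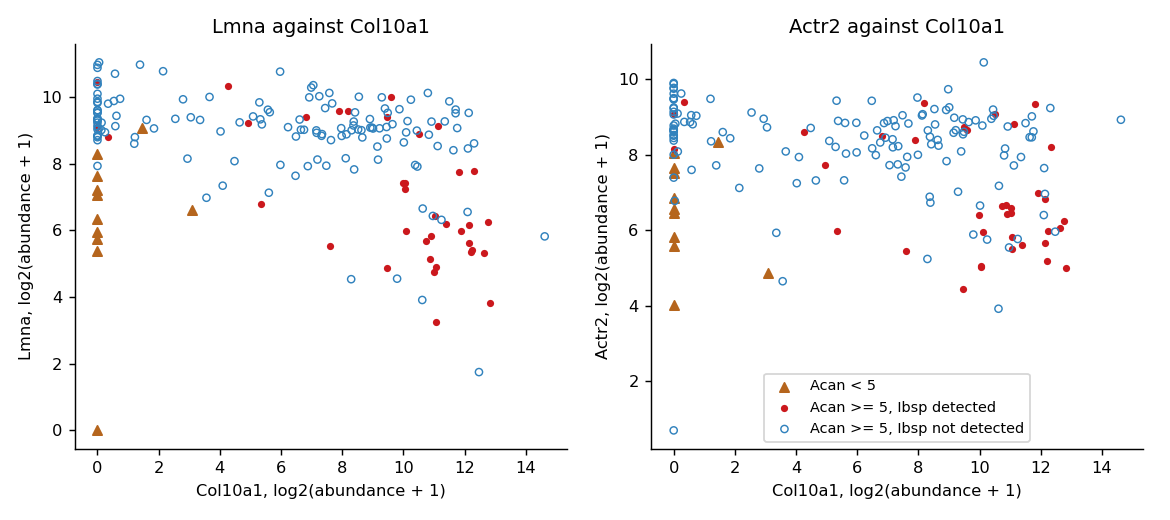
Lmna (left) and Actr2 (right) against Col10a1, all in log2(abundance + 1), 1 mark per profile; brown triangles have Acan below 5, red dots are chondrocyte profiles with Ibsp detected and open blue circles those without. Chondrocyte profiles low in Lmna gather at high Col10a1, where 20 of the 44 profiles of the highest quartile had Ibsp.

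Actr2 took the same direction with a smaller difference. Its level was 8.64 ± 1.40 in the lowest quartile, 8.13 ± 0.93 in the second, 8.0 ± 1.45 in the third and 7.22 ± 1.45 in the highest. Lowest, median and highest values were 3.92, 6.98 and 9.35 in the highest quartile, and 0.70, 8.82 and 9.91 in the lowest, whose minimum is 1 profile far below the others: the next value there was 6.78. The groups overlapped over most of their range. The difference was -1.42, with 79 of 5385 genes more negative, and rho with Col10a1 was -0.37. The SD between repeats, which were chosen by correlation, was 0.56, larger for Actr2 than for Lmna.

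Lmna and Actr2 went together mainly where Col10a1 was high. Their rho was 0.35 over the chondrocyte profiles, but it was -0.24 and -0.10 in the lower 2 quartiles, 0.52 in the third and 0.65 in the highest. The SD of Lmna was 0.73 and 0.99 in the lower 2 quartiles, against 1.42 in the third and 2.05 in the highest. A narrow range can itself lower a rho, and its part in these values was not tested. In the highest quartile, Actr2 was 6.66 ± 1.26 with Ibsp and 7.69 ± 1.44 without (n = 20 and 24 profiles). The genes most like Actr2 were Ptges3 (rho 0.62), a co-chaperone of Hsp90, Cbx3 (0.58), a heterochromatin protein, Twf1 (0.56), which binds actin monomers, AI597468 (0.53) and Mrfap1 (0.53). Least like it were Rps28 (-0.52), Tceb2 (-0.51) and Rpl41 (-0.51), of which Rps28 and Rpl41 encode ribosomal proteins and Tceb2 encodes elongin B.

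**Figure D3:**
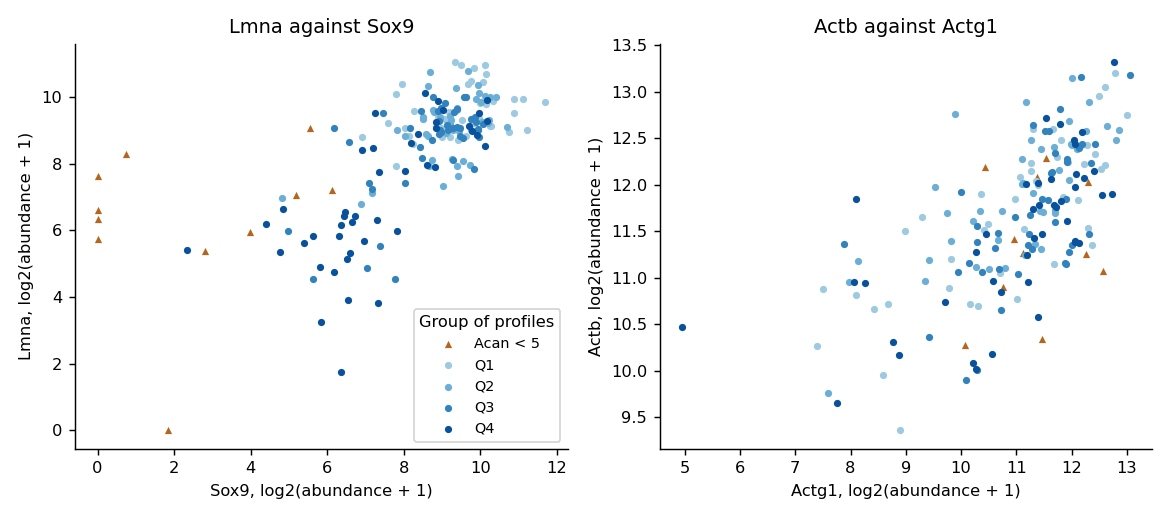
Lmna against Sox9 (left) and Actb against Actg1 (right), all in log2(abundance + 1), 1 mark per profile; triangles have Acan below 5 and darker blue marks a higher quartile of Col10a1. Low Lmna and low Sox9 occur in the same profiles of the highest quartile (rho 0.78 there), and the 2 cytoplasmic actin genes go together (rho 0.70 over chondrocyte profiles).

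Acta2, which encodes the actin of smooth muscle and of contractile fibroblasts, was found in a minority of chondrocyte profiles. It was detected in 43 profiles (24.4%, 95% exact Clopper-Pearson interval 18.3 to 31.5%, which covers counting error only). By quartile, it was detected in 16 of 44 profiles in the lowest (36.4%, 22.4 to 52.2%), 12 in the second (27.3%, 14.96 to 42.8%), 9 in the third (20.5%, 9.80 to 35.3%) and 6 in the highest (13.6%, 5.17 to 27.4%). The intervals of the highest and lowest quartiles overlap. An exact 0 in these data can be a failed estimate.

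Where it was detected, Acta2 was also lower with more Col10a1. The mean over detecting profiles was 8.11 in the lowest quartile, 6.66 and 5.75 in the next, and 4.52 in the highest. Single profiles reached 11.75 in the lowest quartile and 9.64 in the highest. Over all profiles, means were 0.63 ± 1.87 in the highest quartile and 2.97 ± 4.20 in the lowest, a difference of -2.34 that is smaller than the SD of the lowest quartile. Medians were 0 in every quartile, so the difference of medians was 0. The rank correlation with Col10a1 was -0.26.

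Most other smooth muscle markers were sparse in the profiles with Acta2. Besides Acta2, 6 of the 13 markers listed for smooth muscle and pericytes were measured. Tagln, which encodes the contractile protein SM22, was detected in 12 of the 43 profiles with Acta2 (27.9%) and in 25 of those without (18.8%), Des in 3 and 12, Lmod1 in 3 and 8, Mylk in 1 and 6, and Mcam in 1 and 7. Cspg4, a proteoglycan that is not limited to pericytes, was detected in all but 1 profile of either kind. The summed level of the 6 markers ran from 0 to 9.38 in profiles with Acta2 and from 0.38 to 8.47 in those without. Its medians were 6.02 and 6.06. Mean Cspg4 was 5.51 with Acta2 and 5.71 without, against 1.29 and 0.86 for Tagln, the next highest. The sum thus mostly follows Cspg4. All 13 chondrocyte markers were measured, with a median summed level of 14.67 in profiles with Acta2 and 14.74 in those without. Myh11 and Cnn1, more specific to smooth muscle, were listed too but are not among the 9739 genes measured.

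Among the same 2752 genes, the highest rho values with Acta2 were 0.34 for Eif1, 0.33 for Hspa8, 0.32 for Rps25, 0.32 for Rpl9 and 0.31 for Insig1, and the lowest were -0.34 for Panx3, a channel gene of prehypertrophic cells, -0.34 for Susd5 and -0.31 for Sparc. With Actb, the other actin, the rho of Acta2 was 0.03. Most of these profiles share a 0 for Acta2, so the correlations mainly compare profiles with and without it.

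Tmsb4x was found in a minority of chondrocyte profiles and in most profiles with Acan below 5. It was detected in 47 chondrocyte profiles (26.7%, 20.3 to 33.9%). These were 11 of 44 in the lowest quartile (25%, 13.2 to 40.3%), 8 in the second (18.2%) and 11 in the third. In the highest quartile, 17 of 44 had it (38.6%, 24.4 to 54.5%). The intervals of the lowest and highest quartiles overlap here too. Means were 2.30 ± 3.34 in the highest quartile and 0.89 ± 1.87 in the lowest. Their difference of 1.42 was smaller than the SD of the highest quartile, and was 0.94 with genes detected regressed out. Medians were 0 in all 4 quartiles, and rho with Col10a1 was 0.18. The SD between repeats, again chosen by correlation, was 1.01, the largest of the 5 genes.

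The genes most like Tmsb4x in chondrocyte profiles were Mapk3 (rho 0.35), the kinase ERK1, Rps15a-ps4 (0.31), Crebbp (0.31), a histone acetyltransferase, Tuba1b (0.28), a tubulin, and Nfkbia (0.28), the inhibitor of NF-kappa B. The lowest values were -0.33 for Btg3, -0.32 for Klhl9 and -0.30 for AI597468. These profiles mostly share a 0 for Tmsb4x. In the highest quartile, Tmsb4x was 3.44 ± 3.77 in the 20 profiles with Ibsp and 1.36 ± 2.66 in the 24 without.

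In the 11 profiles with Acan below 5, Tmsb4x was high in all but 1. Its lowest, median and highest levels were 0, 9.91 and 11.73, against 0, 0 and 10.50 in the chondrocyte profiles. The 10 profiles that had it ranged from 7.96 to 11.73, and 8 chondrocyte profiles lay above 7.96. Means were 9.16 ± 3.26 with Acan below 5 and 1.41 ± 2.68 in chondrocyte profiles, a difference of 7.75, and of the 5385 genes only Ibsp had a larger one, 8.73. Col1a1, whose detection in 17.1% of profiles is below the 20% limit, differed by 8.13. With an Acan limit of 8, which puts 24 profiles below it, the difference for Tmsb4x was 3.35. The profile at 0 had the highest Acan of the group, 2.91, and carried Col1a1 and Ibsp.

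**Figure D4:**
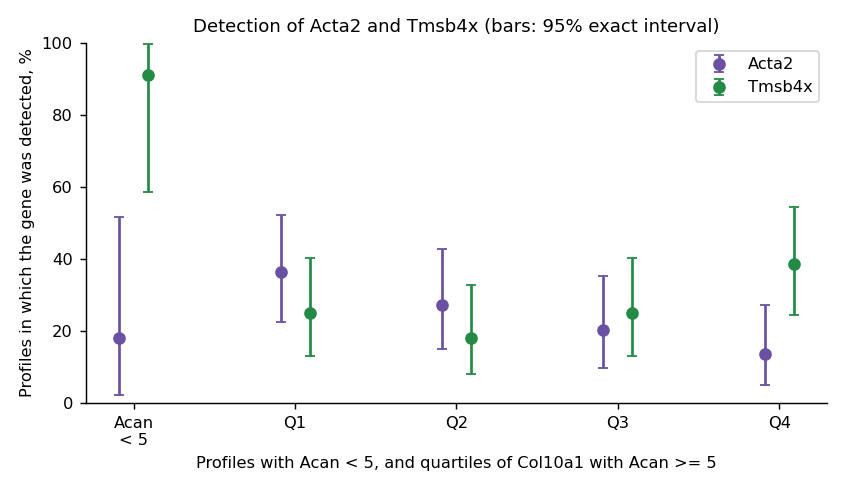
Share of profiles, in percent, in which Acta2 (purple) and Tmsb4x (green) were detected, for profiles with Acan below 5 and for quartiles of Col10a1 among chondrocyte profiles; bars are 95% exact intervals. Acta2 is at 13.6% in the highest and 36.4% in the lowest quartile, with overlapping intervals, and Tmsb4x reaches 90.9% at Acan below 5.

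Most profiles with Acan below 5 carried bone genes. Ibsp was detected in 9 of 11 and Col1a1, the gene of the main bone collagen, in 8, and 2 profiles listed both at 0. The summed level of the 9 measured osteoblast markers had a median of 15.11 there (range 0 to 15.99) and of 6.52 in chondrocyte profiles (0 to 15.29), and the summed chondrocyte markers had medians of 8.53 with Acan below 5 and 14.73 in chondrocyte profiles. Pecam1, the 1 endothelial marker measured, was detected in 3 of the 11 and in 4 chondrocyte profiles. Of the macrophage and osteoclast markers, 6 were measured. Their summed level had medians of 6.66 with Acan below 5 (range 0 to 10.26) and 6.03 in chondrocyte profiles (0 to 9.26). The median share of profiles in which a marker was detected was 18.2% with Acan below 5 and 5.40% in chondrocyte profiles. Lyz2 and Csf1r were at 0 in all 11 profiles with Acan below 5. Genes detected had medians of 2757 with Acan below 5 and 3463.5 in chondrocyte profiles. The part of these other cell types in the levels given was not tested. Without the 2 profiles at 0 for Ibsp and Col1a1, a choice made after the data were seen, the direction was the same for every gene of the 5.

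Lmna and Actr2 were lower in the Acan-low profiles as well. Lmna had a lowest value of 0, a median of 6.60 and a highest value of 9.08 there, against 1.75, 9.06 and 11.04 in chondrocyte profiles, with means of 6.29 ± 2.36 with Acan below 5 and 8.56 ± 1.66 above. Its difference was -2.26, with 470 genes more negative, and -0.48 with an Acan limit of 8. Lmna in these profiles was close to its level in the highest quartile of Col10a1, 7.07 ± 2.05. Actr2 averaged 6.52 ± 1.36 with Acan below 5 and 8.0 ± 1.41 above, a difference of -1.47 that was -0.53 with that limit. Acta2 was detected in 2 of 11 (18.2%, 2.28 to 51.8%), at 1.89 and 2.27, and its mean was 0.38 ± 0.85 with Acan below 5 and 1.66 ± 3.22 above, a difference of -1.28 that was 0.15 with an Acan limit of 8.

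Actb, the gene of cytoplasmic beta-actin, differed least between groups. It was detected in every profile. Its level was 11.67 ± 0.85 in the lowest quartile of Col10a1, 11.90 ± 0.68 in the second, 11.68 ± 0.75 in the third and 11.47 ± 0.82 in the highest. The difference of -0.20 was smaller than the SD within each quartile and turned to 0.11 after upper-quartile scaling. With Acan below 5 the level was 11.38 ± 0.71, against 11.68 ± 0.79 above, a difference of -0.31.

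The gene most like Actb was Actg1, the gene of the other cytoplasmic actin, with rho 0.70 over chondrocyte profiles and 0.61 to 0.79 within quartiles. Actb, Actg1 and Acta2 encode near-identical proteins and share stretches of sequence, and how reads that fit several of them were counted is not given in the sources used here, so the split of reads between them is uncertain. Next came Dstn (0.46) and Cfl1 (0.42), which encode the filament-severing proteins destrin and cofilin, then Col9a2 (0.40) and Lrrc8a (0.39), a subunit of a volume-regulated channel. Eef2 (-0.31), Serinc3 (-0.30) and Nedd4 (-0.29) were lowest.

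Among the 5 genes, 3 were lower by at least 1 in the highest than in the lowest quartile, beside 4.22% of all genes, and 1 was higher by at least 1, beside 16%. For Acan below 5 against at least 5, 3 were lower, beside 30.3% of all genes, and 1 was higher, beside 12.6%. The genes were chosen on these contrasts, so nothing is read from the counts. The median difference of all 5385 genes was 0.30 between quartiles and -0.42 for Acan below 5. Of the 10 pairs among the 5 genes, the highest rho values were 0.35 for Lmna and Actr2 and 0.32 for Lmna and Actb, and the lowest was -0.23 for Actr2 and Tmsb4x. At the cutoffs, Acan was 2.91 just below 5 and 6.67 just above it, so no profile lay near that limit. Col10a1 was 10.14 just below and 10.25 just above the limit of the highest quartile, with Lmna at 9.28 and 9.92 in those 2 profiles. At the limit between the second and the third quartile, Col10a1 was 7.58 and 7.60, with Lmna at 10.12 below and 5.54 above. At the lowest limit, Col10a1 was 1.85 and 2.15, with Lmna at 9.06 below and 10.77 above.

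In 11 lists of cytoskeletal and nuclear envelope genes, 98 genes were detected in at least 20% of profiles. Of these, 8 were lower (8.16%, beside 4.22% of all genes) and 15 higher (15.3%, beside 16%) by at least 1 in the highest than in the lowest quartile, with a median of 0.33 beside 0.30 for all genes. With Acan below 5, 22 were lower (22.4%, beside 30.3% of all genes) and 24 higher (24.5%, beside 12.6%), with a median of -0.20 beside -0.42. The lists overlap and include the 5 genes, which were chosen on these contrasts.

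Of 7 lamin and envelope genes that passed the filter, only Lmna was lower by at least 1 between quartiles, beside 4.22% of all genes. Lmna was chosen on this contrast. Zmpste24, the protease that trims prelamin A, was the only one higher, by 1.38 (4.54 in the highest and 3.16 in the lowest quartile), beside 16%. Lbr, the lamin B receptor, differed by -0.44 and Lemd3 by 0.78. With Acan below 5, 4 of the 7 were lower, beside 30.3% of all genes, among them Lbr by -2.92 (2.15 against 5.07), and the median was -1.15. Lmnb1, Sun1 and Sun2 were not analysed here.

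Of 8 measured genes of the Arp2/3 complex, Actr2 was the only one lower by at least 1 between quartiles, beside 4.22% of all genes, while Arpc1b (2.53 in the highest and 1.14 in the lowest quartile) and Arpc5l (2.87 and 1.64) were higher, beside 16%, and the median was -0.06. Arpc2 was 6.59 in the highest and 7.18 in the lowest quartile. With Acan below 5, Arpc2 (-1.79) was lower with Actr2. Among monomer-binding and turnover genes, 1 of 13 was lower between quartiles, Twf1 (7.68 and 8.76), and 1 was higher, Tmsb4x. Capza1, a filament-capping subunit, was 6.90 in the highest and 5.92 in the lowest quartile, and Tmsb10, a thymosin related to Tmsb4x, was 3.05 and 2.10. None of 5 nucleation genes passed the fold between quartiles.

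Of 10 intermediate filament and microtubule genes, 4, all tubulins, were higher by at least 1 in the highest quartile, beside 16% of all genes: Tuba1a (7.14 in the highest and 4.30 in the lowest quartile), Tubb2a (6.92 and 4.38), Tubb5 (5.08 and 3.04) and Tubb4b (5.32 and 3.31). The other 3 tubulin genes of the list did not pass the fold, with differences of 0.76 for Tuba1b, 0.71 for Tuba1c and -0.11 for Tubb6. Vim, the gene of vimentin, was lower (8.45 ± 1.55 and 9.56 ± 1.33), as was Stmn1, a tubulin-binding protein (1.03 and 2.27). With Acan below 5 both were higher, Vim at 11.70 against 8.98 and Stmn1 at 5.83 against 1.35. The list median was 0.74, and 0.12 with genes detected regressed out. Tubulin genes are close copies of each other, so their split is uncertain too.

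Genes of contractility and adhesion were mixed, and their counts between quartiles stand beside 16% of all genes higher and 4.22% lower. Of 18 crosslinker and myosin genes, 3 were higher, with Myh10, a non-muscle myosin, at 3.31 in the highest and 1.55 in the lowest, and 2 were lower, Actn1 (1.48 and 2.76), an actin crosslinker, and Tagln2 (4.17 and 5.46). Of 13 integrin and focal adhesion genes, 3 were higher and none lower, with Fermt2, an integrin activator, at 4.86 and 2.68. In the SRF list, 1 of 8 was higher, Zyx (5.08 and 3.82), and none was lower, and in the YAP/TAZ list Ctgf was higher (6.47 and 4.21). With Acan below 5, Cald1 (4.80 against 2.08), Cnn2 (4.42 against 1.74) and Flna (4.61 against 2.13), genes of actin-binding proteins, were higher, and Ezr, which links actin to the membrane, was lower (1.56 against 6.07).

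**Figure D5:**
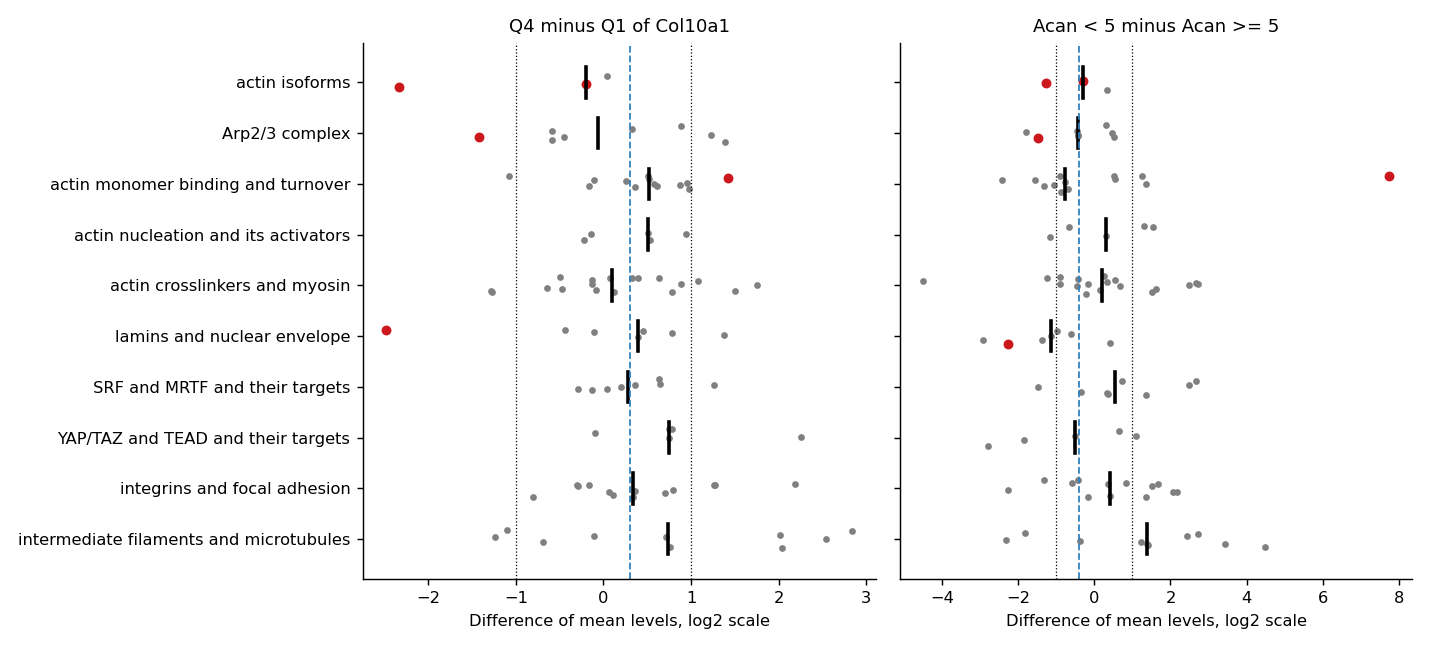
Difference of mean levels on the log2 scale for each gene of 10 lists that was detected in at least 20% of profiles. The left panel is the highest minus the lowest quartile of Col10a1, and the right panel is Acan below 5 minus at least 5. Grey dots are genes, red dots are the 5 genes described and black bars are list medians. The dashed blue line is the median of all 5385 genes (0.30 and -0.42), and dotted lines mark 1 and -1. Lmna, Acta2 and Actr2 lie left of the other plotted genes of their lists between quartiles, and Tmsb4x lies far right with Acan below 5.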

How the data were processed

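Per the labels' protocols, polyA RNA of single cells from dissected tibial growth plates was amplified with SMARTer chemistry and made into Nextera XT libraries. The submitters' processing notes name TopHat and mm10. Which program and annotation gave the abundances, and in what unit, is not given in the sources used here. As deposited by the authors, values are log2 and run from 0 to 15.14, with 62.3% exactly 0. Base 2 and the pseudocount of 1 were inferred from the values, and back-transformed totals per cell ran from 394406 to 616257. One row without a gene name was left out. Every gene is above 0 in at least 10 columns.

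Columns above r = 0.95 were averaged and 1 mixed column was dropped, which gave 187 profiles, 176 of them with Acan of at least 5. Quartile groups used the quartiles of Col10a1, with tied values together. Summed marker levels are log2 of the summed back-transformed values plus 1, without the 5 genes. A difference of at least 1 counted as past the fold. Genes named were the 5, up to 4 per list with the largest absolute difference in each comparison, the 5 most and 3 least like each gene, and the markers. The values between quartiles of Lbr, Arpc2, Vim, Stmn1, Tuba1b, Tuba1c and Tubb6 were added after they were seen, as was the count of Lmna values below the lowest quartile. One of the 11 lists counts only in the total over lists and is otherwise not reported here. The genes and lists were chosen with earlier results of these data known.

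The steps were run on simulated data, with gene values shuffled over profiles and a known shift added to some genes. Shuffling removes the link of levels with genes detected, so this checked the calculation only. Alternatives covered repeats, the mixed column, the Acan limit, the pseudocount, scaling, sparse profiles, genes detected, medians, another cut of Col10a1 and the filter on low values. Calculations used SciPy 1.17.1, NetworkX 3.6.1, pandas 2.3.3, NumPy 2.4.6 and matplotlib 3.10.9 under Python 3.11.15.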

Additional observations from a re-analysis of the deposited data

How the results depend on the processing

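No paired analysis was possible because all cells form 1 group with no replicate numbers shared between groups. Over the alternatives, the difference between the highest and lowest quartile of Col10a1 ranged from -2.75 to -2.15 for Lmna and from -1.84 to -1.13 for Actr2. With an Acan limit of 8, Acta2 was higher by 0.15 in the 24 profiles below it (1.71 against 1.56), Tmsb4x was higher by 3.35, and 3.68% of genes were higher and 16.9% lower by at least 1, against 12.6% and 30.3% with a limit of 5. After upper-quartile scaling, rho with Col10a1 was -0.40 for Lmna, -0.24 for Actr2 and 0.051 for Actb, and 2.67% of genes were lower between quartiles. Between quartiles, 16% of genes were higher and 4.22% lower as reported, 31.8% and 7.67% with a pseudocount of 0.1, and 5.39% and 7.80% with genes detected regressed out. The share of higher among all called genes was 79.2% as reported, 88.9% after upper-quartile scaling and 40.8% with genes detected regressed out, and the median of all genes was 0.30, 0.44 and -0.03. With genes detected regressed out, the median of the nucleation list was -0.22. Medians in place of means gave 6.48% of genes lower between quartiles, differences of 0 for Acta2 and Tmsb4x, and -2.32 for the lamin and envelope list with Acan below 5. For Acan below 5, 18.6% of genes were higher without the 10% of profiles with fewest genes, and 10.9% of all 9739 genes (1063 genes) without a filter on low values, against 680 genes with it. The cause of these changes was not tested. Depth per cell is unknown, so no limit on a value of 0 can be given.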
